A study of Mus musculus with 25 samples.

Results

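Replication-dependent histone genes encode the bulk of the H1, H2A, H2B, H3 and H4 proteins that package newly made DNA. They lie in dense clusters, most have no intron, and their mRNAs end in a stem-loop in place of a poly(A) tail. They are transcribed mainly in S phase at histone locus bodies, where NPAT gathers the transcription factors, and the stem-loop binding protein SLBP carries the mRNA through 3′ end processing and translation. DOT1L, the main known methyltransferase of lysine 79 of histone H3, marks mostly the transcribed part of active genes.

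The members were all genes of each RNA count table whose symbol is a Hist1 to Hist4 histone name, or its newer form (H2ac, H2bc, H3c and H4c with a number, and H1f1 to H1f5). The table of mouse embryonic stem cells (mESCs) uses the newer names and held 64 members among 35731 genes, and the table of embryos uses the older names and held 68 members among 24062 genes. The tables shared 63 members. Of the mESC members, 5 are of type H1, 18 H2A, 17 H2B, 12 H3 and 12 H4. H2ac14 among them is annotated as a pseudogene, and Hist3h2bb-ps of the embryo members as a transcribed pseudogene. The Hist1 cluster on chromosome 13 held 54 of the mESC members, and the 53 with a RefSeq position lay between 21715711 and 23934913 (GRCm38.p6). The Hist2 cluster on chromosome 3 held the other 10, between 96219885 and 96270192. Of the 63 placed members, 58 spanned at most 1000 bp, with a median of 485 bp, and 5 were annotated with longer spans.

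The series compares cells and embryos with and without DOT1L activity. Untreated mESCs of strain v6.5 were wild type (WT, 3 RNA libraries) or Dot1L knockout (KO, 2 RNA libraries). Embryos at the 8-cell stage, of the cross B6D2F1 x Cast/EiJ and wild type in all libraries, received DMSO, the solvent (2 libraries), or SGC0946, a DOT1L inhibitor (2 libraries), and were collected in pools of 30 to 35 at 56 hours after fertilization. Dimethyl and trimethyl lysine 79 (H3K79me2 and H3K79me3) were mapped by chromatin immunoprecipitation (ChIP) in untreated WT and KO mESCs, with 2 peak lists per mark and genotype. Both RNA kits work from total RNA. Whether the counts depend on a poly(A) tail was not tested. No label says whether libraries came from separate cultures, so p-values measure only the spread between these libraries, which may be technical. For bulk libraries, fewer cells in S phase and less RNA per cell cannot be told apart.

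Totals were 26856146 to 33750470 counts per mESC library and 24950199 to 32479590 per embryo library. Dot1l itself stood at 104, 96.8 and 99.1 CPM (counts scaled to a common library total) in WT and at 81.4 and 71.6 CPM in KO mESCs. It fell by 0.39 on the log2 scale (SE 0.06, edgeR adjusted p = 0.000162). A gene total does not say how much of it comes from the deleted part. H3K79me2 peaks overlapped 8793 and 8620 protein-coding genes in the WT lists and 9 and 10 in the KO lists. All 5 pluripotent cell markers were measured in mESCs, at a sum of 2392 to 2432 CPM in WT and 1860 to 1971 CPM in KO libraries. On the log2 scale, 3 were called lower (Nanog -1.02, Zfp42 -0.46 and Pou5f1 -0.21), against 21.4% of all genes tested. Sox2 (-0.05) and Esrrb (-0.07) did not pass. The 7 feeder fibroblast markers summed to 153 to 195 CPM in WT and 195 to 243 CPM in KO libraries. Of the 6 tested, 3 were called higher, against 22.3% of all genes tested. These were Col1a1 (from 52.2 to 80.2 CPM), and Postn and Thy1, whose calls were lost with DESeq2 and in other fits. Col1a2 (0.29), Col3a1 (-0.14) and Dcn (-0.12) did not pass, and Lum was at 0.222 CPM in WT. Their part in the results below was not tested.

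Upstream sequences are shown for 5 members, to set side by side genes that fell, genes that did not pass the test and the gap between a pair of neighbours that moved in opposite directions. Each runs 5′ to 3′ on the gene's own strand and ends at the base before the annotated start (RefSeq, GRCm38.p6). Capitals mark matches, on either strand, to TATAA (the TATA box), CCAAT, ATTTGCAT (the octamer bound by POU2F1) or GGTCCG (the core of the H4 element bound by HINFP).
H2ac20, chr3:96220881-96221071, minus strand: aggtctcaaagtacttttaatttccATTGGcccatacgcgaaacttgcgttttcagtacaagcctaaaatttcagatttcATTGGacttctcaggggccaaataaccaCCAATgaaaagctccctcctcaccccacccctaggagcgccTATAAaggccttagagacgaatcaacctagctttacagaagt
H3c13, chr3:96268534-96268653, plus strand: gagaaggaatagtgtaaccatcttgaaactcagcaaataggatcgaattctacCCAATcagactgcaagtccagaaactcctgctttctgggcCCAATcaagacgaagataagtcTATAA
H2bc8, chr13:23571280-23571399, plus strand: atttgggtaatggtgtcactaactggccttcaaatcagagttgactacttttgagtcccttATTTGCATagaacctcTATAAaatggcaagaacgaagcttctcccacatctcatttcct
H4c4, chr13:23581448-23581567, plus strand: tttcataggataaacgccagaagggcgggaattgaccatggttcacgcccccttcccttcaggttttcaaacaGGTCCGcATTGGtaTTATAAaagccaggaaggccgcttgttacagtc
H4c1, chr13:23761250-23761369, minus strand: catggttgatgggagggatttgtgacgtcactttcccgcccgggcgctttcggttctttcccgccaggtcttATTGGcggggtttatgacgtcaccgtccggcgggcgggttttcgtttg
The 191 bases shown for H2ac20 fill the gap up to the annotated edge of H2bc21. H2bc8 carries the octamer ahead of its TATA box, H4c4 carries the HINFP core, and H4c1 carries neither TATAA nor GGTCCG in the bases shown.

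RefSeq windows of 300 bases (250 before and 50 after the start) were found for 57 of the 64 members. H2ac14, H2bc21, H2bc24, H2bc4, H3c1, H3c7 and H4c14 had none. Matches on either strand and anywhere in the window were counted. TATAA stood in 45 of the 57 windows (78.9%), against 25.5% of 27025 windows of all genes. In the members it had 47 matches on the gene's strand and 25 on the other strand. On the gene's strand its first base lay from -250 to 41 relative to the start, with a median of -32. A match therefore need not be a TATA box of that gene. CCAAT stood in every H1, H2A, H2B and H3 window but in only 3 of 11 H4 windows, against 37.8% of all genes. The octamer was found in 7 of 14 H2B windows, always on the gene's strand. It was found in 6 of 17 H2A windows, always on the other strand, with first bases from -200 to -124. Windows of close H2A and H2B neighbours share bases, so the same site can be counted for both. No H1, H3 or H4 window held it, and 1.74% of all genes did. GGTCCG stood in 10 of 11 H4 windows, in 1 H2B and 1 H3 window, and in 8.34% of all genes. These matches describe letters in a window, not bound sites. Among tested H2B genes the median log2 fold change in KO mESCs was -0.30 for the 7 with the octamer and -0.32 for the 7 without it. Among tested H2A genes it was -0.29 for the 6 with it on the other strand and -0.25 for the 10 without it. Of the 9 tested H4 genes with GGTCCG, 5 were called lower, against 21.4% of all genes tested, and their median was -0.13. Only 1 tested H4 gene with a window, H4c1, lacked it, and it fell by 0.35.

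In WT mESCs the histone mRNAs spanned a wide range of levels. Per kb of gene span, the 55 tested members of at most 1000 bp ranged from 5.74 to 977 CPM, with a median of 231. H4c4 (H4) stood highest, at 977 ± 11 CPM per kb (SD, n = 3). H1f3, a linker histone that binds the DNA between nucleosomes, followed at 741 ± 20.3, and H2bc8 (H2B) at 724 ± 24.7 CPM per kb. H1f1 (718 ± 5.25), H2ac18 (H2A, 681 ± 19.1), H2bc18 (H2B, 668 ± 11.2), H4c18 (655 ± 29.5) and H4c1 (641 ± 34.7) came next. The gap below H4c4 and that between H1f1 and H2ac18 were larger than the SDs of both genes, and each other gap in this order was smaller than the larger SD of the pair. At the other end, H2ac14, H2ac19 and H4c17 were too low to test in mESCs, and the deposited estimates of H2ac19 rounded to 0 in each library. The sum of H2ac18 and its near-identical copy H2ac19 was 377, 369 and 390 CPM in WT, all of it assigned to H2ac18. The level given for H2ac18 may therefore belong to both copies.

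Most replication-dependent histone mRNAs were modestly lower in KO than in WT mESCs. Of 61 tested members, 43 were called lower and 2 higher by edgeR's quasi-likelihood test at an adjusted p under 0.05, and 16 did not pass. Over all 19561 genes tested, 21.4% were called lower and 22.3% higher. Genes with levels like those of the members were called lower more often: of 1881 other genes between 74.1 and 163 CPM in WT, the interquartile range of the members, 42.5% were lower and 14.9% higher. The median log2 fold change of the members was -0.25, against 0.00 for all genes, and 56 of the 61 values lay below 0. The falls were small, with a median of 18.1% among the 43, from 0.11 to 0.88 on the log2 scale, and only 3 reached 0.5. In 44 of the 61 tested members every KO library lay below every WT library, as in 30.6% of all genes tested.

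**Figure D1:**
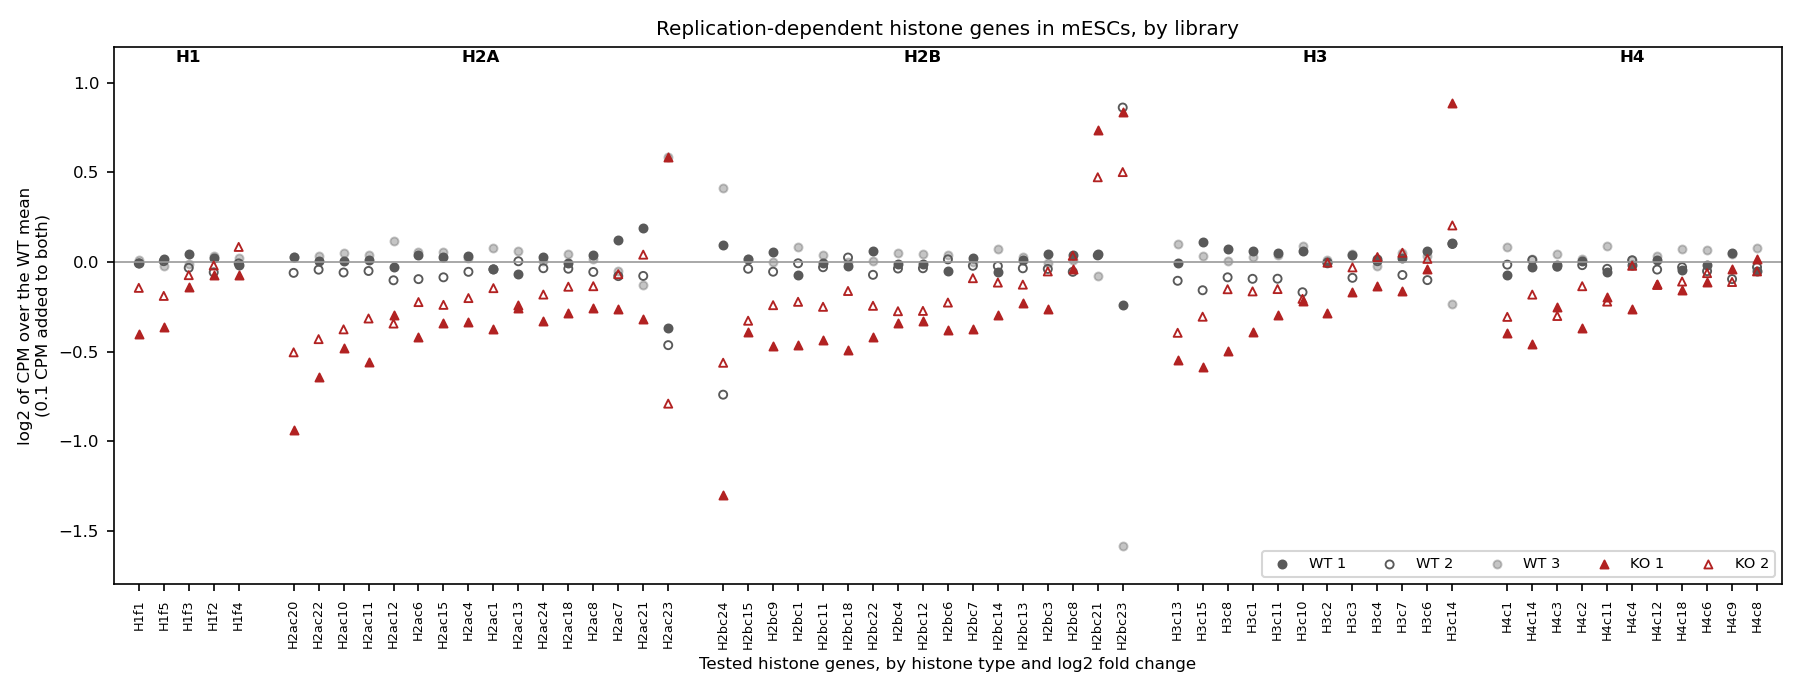
Each column is a tested histone gene in mESCs, grouped by histone type, and each point is a library: WT as grey circles, KO as red triangles, on a log2 scale of CPM over the WT mean. Most KO points lie below 0, those of KO 1 mostly below those of KO 2, while H2bc21 and H3c14 lie above it and the points of H2bc23 and H2bc24 scatter in both groups.

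Summed over all 64 members, the level was 9044 to 9474 CPM in WT and 7688 and 8459 CPM in KO libraries. The groups did not overlap, and the KO mean was 13.1% lower (9290 ± 221, n = 3, against 8074 ± 545 CPM, n = 2). The KO libraries differed from each other: KO 1 was below KO 2 in 51 of the 61 tested members. With KO 1 left out, 29 members were called lower and the median log2 fold change was -0.16, and with KO 2 left out 48 were called lower and it was -0.31. In those fits the lone KO library is assumed to vary like the WT libraries. Upper-quartile scaling of the libraries raised the median of all genes to 0.07 and turned the calls over all genes into 5488 higher and 3170 lower, from 4358 and 4190. With it, 32 members were lower and 2 higher, with a median of -0.18.

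**Figure D2:**
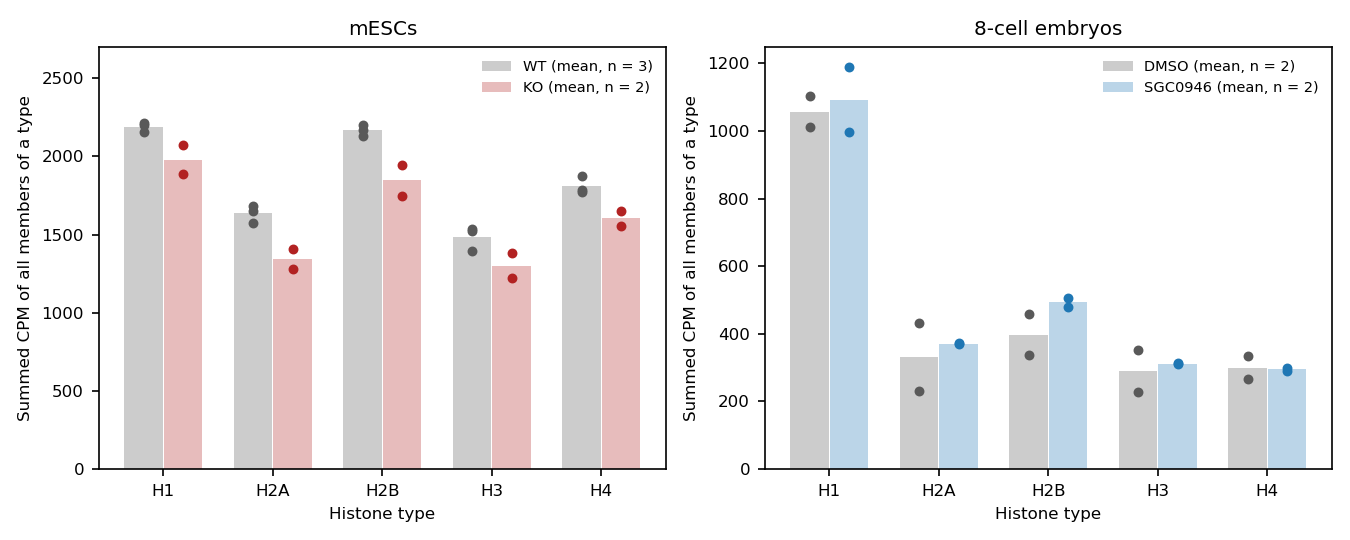
Bars are group means of the summed CPM of all members of each histone type, and points are libraries, for mESCs on the left and 8-cell embryos on the right. In mESCs the KO points lie below the WT points in every type, and in embryos the groups overlap in H1, H2A, H3 and H4.

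The core histones of the nucleosome's outer dimer, H2A and H2B, had the most calls. Of 16 tested H2A genes 13 were lower, and of 17 H2B genes 14 were lower and 1 higher, with medians of -0.26 and -0.30. Of 12 H3 genes 6 were lower and 1 higher (median -0.17), and of 11 H4 genes 7 were lower (median -0.14). The summed level was 18.1% lower in KO for H2A, 14.8% for H2B, 12.3% for H3, 11.5% for H4 and 9.57% for H1. Over all genes tested 21.4% were called lower and 22.3% higher. Among other genes at 74.1 to 163 CPM in WT it was 42.5% and 14.9%. Differences between the types, or from these shares, were not tested.

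The linker histone H1 genes split. H1f5 read 395, 392 and 385 CPM in WT and 304 and 343 CPM in KO, and fell by 0.27 (SE 0.05, edgeR adjusted p = 0.000527). H1f1 read 534, 532 and 539 CPM in WT and 406 and 484 CPM in KO, and also fell by 0.27 (SE 0.06, edgeR adjusted p = 0.00245). In both genes each KO library was below each WT library. H1f3 fell by 0.11 (edgeR adjusted p = 0.0436), a call lost under upper-quartile scaling (-0.04), with at least 10 counts in every library (-0.10), with the replicate number as a block (-0.11) and without WT 1, WT 2, WT 3 or KO 1 (-0.12 to -0.08). H1f2 (-0.05) and H1f4 (0.01) did not pass. H1f4 read 287, 289 and 295 CPM in WT and 276 and 308 CPM in KO, so the groups overlapped.

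Of the 8 members highest per kb, 6 were called lower, against 21.4% of all genes tested. H4c1 read 277, 289 and 309 CPM in WT and 221 and 236 CPM in KO, and fell by 0.35 (SE 0.05, edgeR adjusted p = 8.9e-05). H2bc18 read 324, 335 and 329 CPM in WT and 234 and 294 CPM in KO, and fell by 0.32 (SE 0.07). H2ac18 fell by 0.21 and H4c18 by 0.13, the latter no longer called under upper-quartile scaling (-0.07), with the replicate block (-0.10) or without WT 2, WT 3 or KO 1 (-0.15 to -0.10). H4c4, whose upstream HINFP core is shown above, read 387, 395 and 395 CPM in WT and 328 and 387 CPM in KO, and did not pass (-0.14, edgeR adjusted p = 0.0689). It was called lower with DESeq2 (-0.15), with no filter on low counts (-0.15), with the replicate block (-0.14) and without KO 2 (-0.26). H2bc8 read 346, 323 and 339 CPM in WT and 327 and 344 CPM in KO. Its levels overlapped, and its log2 difference of 0.00 had an SE of 0.04.

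The largest falls other than that of H2bc24 were in H2A and H3 genes. H2ac20, an H2A gene of the Hist2 cluster, read 66.6, 62.6 and 66.6 CPM in WT and 34.0 and 46.0 CPM in KO, and fell by 0.70 (SE 0.09, edgeR adjusted p = 4.6e-05). H2ac22, an H2A gene of Hist1, read 30.6, 29.6 and 31.2 CPM in WT and 19.5 and 22.6 CPM in KO, and fell by 0.53 (SE 0.07). H3c13 read 106, 99.2 and 114 CPM in WT and 73.1 and 81.1 CPM in KO, and fell by 0.47 (SE 0.06). In these 3 genes the groups did not overlap. H3c15 fell by 0.44 (SE 0.08), from 223, 185 and 211 to 138 and 167 CPM.

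The 2 members that rose both lie in Hist2 and both were low. H2bc21, an H2B gene whose annotated edge is 191 bases from the start of H2ac20, read 3.12, 3.10 and 2.85 CPM in WT and 5.09 and 4.23 CPM in KO. It rose by 0.62 (SE 0.15, edgeR adjusted p = 0.00383) while H2ac20 fell. Of the 11 H2A and H2B pairs with under 500 bases between them in which both were tested, only this one had values of opposite sign (H2bc8, at 0.00, changed sign under other settings). H3c14 read 9.61, 9.58 and 7.58 CPM in WT and 16.6 and 10.3 CPM in KO, and rose by 0.59 (SE 0.17, edgeR adjusted p = 0.0114). Without KO 1 its value was 0.20 and it was not called. Summed with H3c15, it read 233, 194 and 219 CPM in WT and 154 and 177 CPM in KO.

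**Figure D3:**
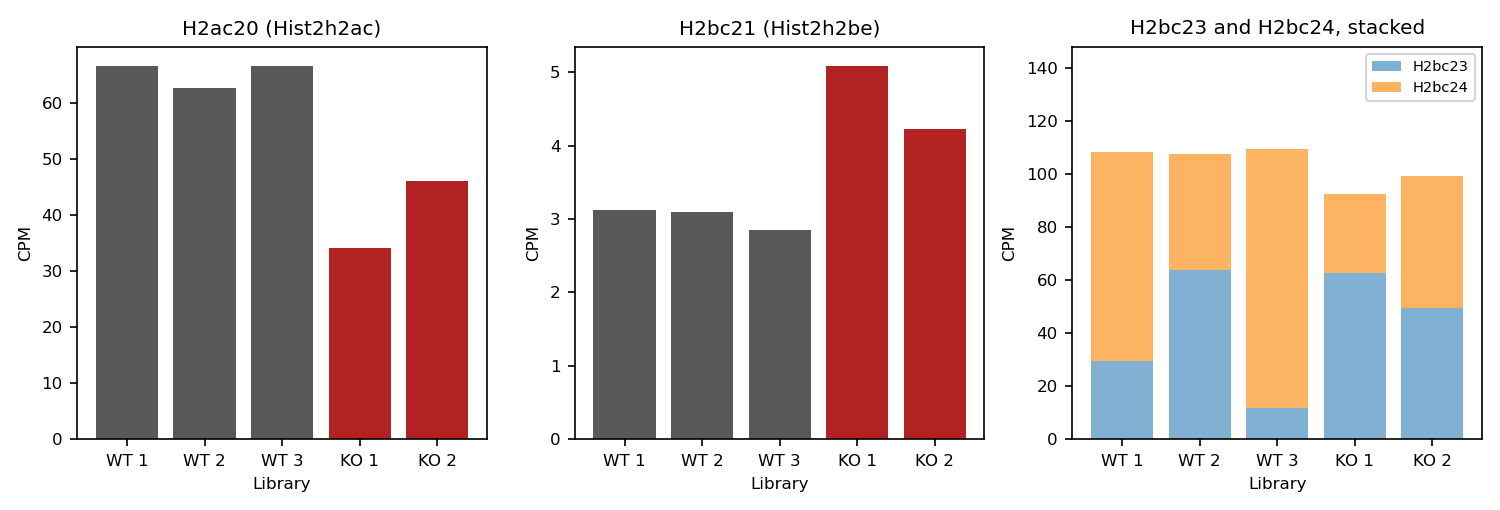
Bars are CPM per mESC library, grey for WT and red for KO in the first 2 panels, with a scale of its own in each panel. H2ac20 is lower and H2bc21 higher in both KO libraries, and in the stacked panel the shares of H2bc23 and H2bc24 change from library to library while their sum changes little.

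Many histone genes are near-identical in sequence, and the deposited mESC counts are estimates that split shared reads. Of the 64 members, 63 had a fractional count in at least 1 library, against 48.2% of all genes, and H1f1 was the exception. H2bc24 had the largest called fall (-0.88, SE 0.26, edgeR adjusted p = 0.0154), but its groups overlapped, at 78.7, 44.0 and 98.0 CPM in WT and 29.8 and 49.8 CPM in KO. It was not called by DESeq2 (-0.90), nor without WT 3 (-0.62) or KO 1 (-0.56). H2bc23 read 29.6, 63.7 and 11.6 CPM in WT and 62.5 and 49.6 CPM in KO, high where H2bc24 was low. It did not pass, but was called higher with no filter on low counts (0.65) and without WT 2 (1.45). The sum of both was 108, 108 and 110 CPM in WT and 92.4 and 99.3 CPM in KO, a difference of -0.18 between the log2 means, so single values for these copies are uncertain. In the embryo table, made with whole reads, 8 members were at 0 in all libraries, among them both of this pair (Hist1h2bq and Hist1h2br) and Hist2h2aa1, the older name of H2ac18.

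By position, the calls were spread along Hist1. In its part at 21715711 to 21833475, 14 of 16 tested members were lower, at 22035122 to 22043658 it was 4 of 5, at 23531044 to 23764412 it was 16 of 28, and at 23933725 to 23934913 both were lower. None was higher. In Hist2, 6 of 9 were lower and 2 higher. Over all genes tested 21.4% were called lower and 22.3% higher. Among other genes at 74.1 to 163 CPM in WT it was 42.5% and 14.9%. The parts were not tested against each other or against these shares. Of 6 histone genes of the older Hist names that the rule left out in mESCs, H1f6, a testis-specific linker histone, rose by 0.48 (SE 0.08, 9.22 to 10.2 CPM in WT and 13.3 to 14.2 CPM in KO), H2aw fell by 0.17, H2af-ps2 fell by 0.19 (edgeR adjusted p = 0.0455) and the other three did not pass. H2aw was not called with upper-quartile scaling (-0.11), with the replicate block (-0.13) or without WT 1, WT 3 or KO 1 (-0.18 to -0.09).

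No H3K79 peak lay over a histone gene. Of the 63 placed members, 0 were overlapped by an H3K79me2 peak in any of the WT or KO lists, and 0 by an H3K79me3 peak. The background was 37.6% of 21883 protein-coding genes with an H3K79me2 peak in both WT lists and 9.94% with an H3K79me3 peak. For the 63 placed mESC members, extending the spans by 2 kb on each side, or taking either WT list alone, also gave 0 for both marks. H1f1, the member with whole counts throughout, had none, and neither had the 5 members with spans over 1000 bp.

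Other genes were compared by level and by length. Of 1847 other coding genes within the interquartile range of the members' WT levels, 96.3% had an H3K79me2 peak in both WT lists and 25.1% an H3K79me3 peak. Of 81 other coding genes of at most 1000 bp and at least 10 CPM, 10 (12.3%) had H3K79me2 and 4 (4.94%) H3K79me3, against 0 of 52 such members. The 10 include Rps27, a ribosomal protein gene, and Mif, a cytokine gene, at 299.7 and 197 CPM. Of 298 coding genes over 1000 and up to 3000 bp at that level, 75.2% had H3K79me2. How reads that match several copies were treated in the ChIP data is not given in the sources used here, and its part was not tested.

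**Figure D4:**
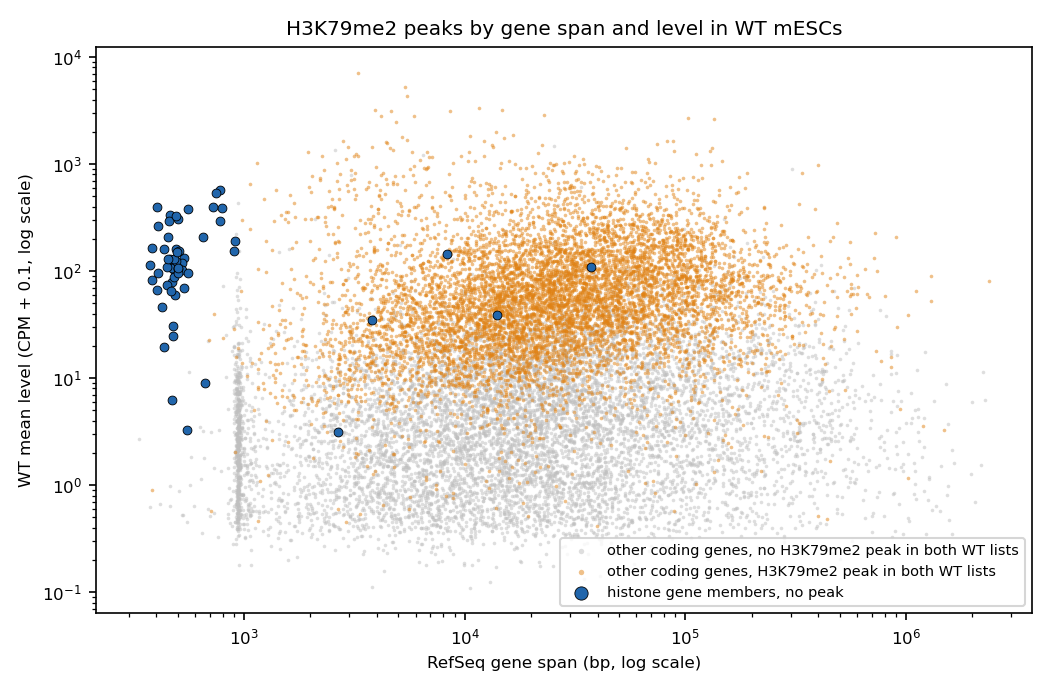
Each point is a tested protein-coding gene in WT mESCs, by RefSeq span and mean level, both on log scales, orange where an H3K79me2 peak lies over it in both WT lists. The histone genes (blue) sit mostly at the short end and 0 of them carry a peak, as against 12.3% of other coding genes of at most 1000 bp at 10 CPM or more.

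The nearest WT H3K79me2 peak lay at a median of 119 kb (list 1) and 205 kb (list 2) from the members. Among the mESC members the closest was 3.20 kb from H2bc15, in list 1 alone. Of members in the embryo table only, Hist3h2a (H2aw) lay 425 and 688 bp from an H3K79me2 peak of WT lists 1 and 2. Hist3h2bb-ps lay 1105 and 1368 bp away, Hist4h4 (H4f16) 4006 and 4132 bp, and Hist3h2ba 6245 and 6508 bp. Hist1h1t (H1f6) lay 272054 and 272099 bp away. For Hist2 the distances were 42.9 to 92.7 kb in list 1 and 42.7 to 92.5 kb in list 2. Of 26 tested coding neighbours within 200 kb of a member, 6 (23.1%) had H3K79me2 in both WT lists. All 6 were among the 9 at 10 CPM or more. The share over all coding genes was 37.6%, but that set also holds genes not tested for RNA. The 7 nearest neighbours, among them Hfe at 3.58 kb and Fcgr1 at 12.7 kb, did not have it in both lists, and the marked genes lay 42.3 to 185 kb from a member. The 6 are Otud7b and Sf3b4 beside Hist2, and Zkscan8, Zfp322a, Abt1 and Carmil1 beside Hist1. Sf3b4, a splicing factor gene, and Carmil1 also had H3K79me3.

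Genes that make and process histone mRNAs did not move in one direction in KO mESCs. Of 4 transcription genes, Npat was called higher (0.13, SE 0.04, from 126 to 139 CPM), a call lost with DESeq2 (0.12), with the replicate block (0.11) and without WT 2, WT 3 or KO 2 (0.11 to 0.15). Of 11 genes of 3′ end processing, Lsm10 of the U7 particle (0.34) and the scaffold Sympk (0.14) were higher, and Cstf2 (-0.91) and Srrt (-0.21) were lower. Neither rise was called by DESeq2, that of Lsm10 not without WT 2 or KO 1 (0.30 each), and that of Sympk not without WT 2, WT 3 or KO 1 (0.09 to 0.14). Cstf2 is on the X chromosome, where 60.4% of 737 tested genes were called lower in KO. Slbp read 145 ± 4.26 CPM in WT (SD, n = 3) and 159 ± 13 in KO (n = 2), and did not pass (0.13, edgeR adjusted p = 0.0547). It was called higher under upper-quartile scaling (0.20), with no filter (0.12), with at least 10 counts in every library (0.14), with the replicate block (0.15) and without KO 1 (0.21). Of 4 decay genes, Lsm1 (0.20) and Tut7 (0.18) were higher, and Upf1 (-0.13) was lower. The Upf1 call was lost under upper-quartile scaling (-0.07) and without WT 1 or WT 2 (-0.12 and -0.13), and the Lsm1 call with DESeq2 (0.19) and without WT 3 or KO 2 (0.18 and 0.13).

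Of 20 genes of DNA replication, which run with histone synthesis in S phase, 14 were called lower and 0 higher, with a median of -0.15. The background was 21.4% lower over all genes and 42.5% among other genes at 74.1 to 163 CPM, and 4 of the 20 lay in that range and 10 above it. The difference between these shares was not tested. The largest falls were in Pola1 of the primase complex (-0.79, on the X chromosome), Rrm2 of ribonucleotide reductase (-0.54, from 395 ± 16.0 to 272 ± 15.4 CPM) and Ung, a uracil glycosylase (-0.50). Of 15 histone chaperones 9 were lower and 1 higher (median -0.13). Atrx (-1.17) and Rbbp7 (-0.71) are both on the X chromosome, and Asf1a, which hands H3 and H4 to the assembly factors, fell by 0.33. The 11 tested replication-independent histones had a median of 0.00. H1f0, the linker histone of resting and differentiating cells, rose by 0.76 (SE 0.04, from 61.9 to 105 CPM), H1f10 by 0.43 and H2az2 by 0.38, while Cenpa of the centromere fell by 0.23 and 7 did not pass.

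In 8-cell embryos no histone gene passed the test. Of 68 members 58 were tested, and 0 were called higher or lower with SGC0946 by edgeR. Over all 14351 genes 0% were called either way, and the smallest edgeR adjusted p was 0.203. On data simulated with the same spread for all genes, 0% of genes changed by 2-fold were recovered. The tested members had spreads of their own (median SE 0.323), so this does not say which changes among them were detectable. For scale, the members called lower in KO mESCs had a median log2 fold change of -0.29 in those cells. In embryos, 3 members had an unadjusted edgeR p under 0.05, as did 8.15% of all genes. DESeq2 called 0 of the 52 members it tested, while over all genes it called 37 higher and 88 lower. The median log2 fold change was 0.16, against 0.01 over all genes, and 41 of 58 values lay above 0. It rested on 1 library: DMSO 1 was below DMSO 2 in 45 of 58 members, and the median was -0.08 without DMSO 1 and 0.51 without DMSO 2.

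**Figure D5:**
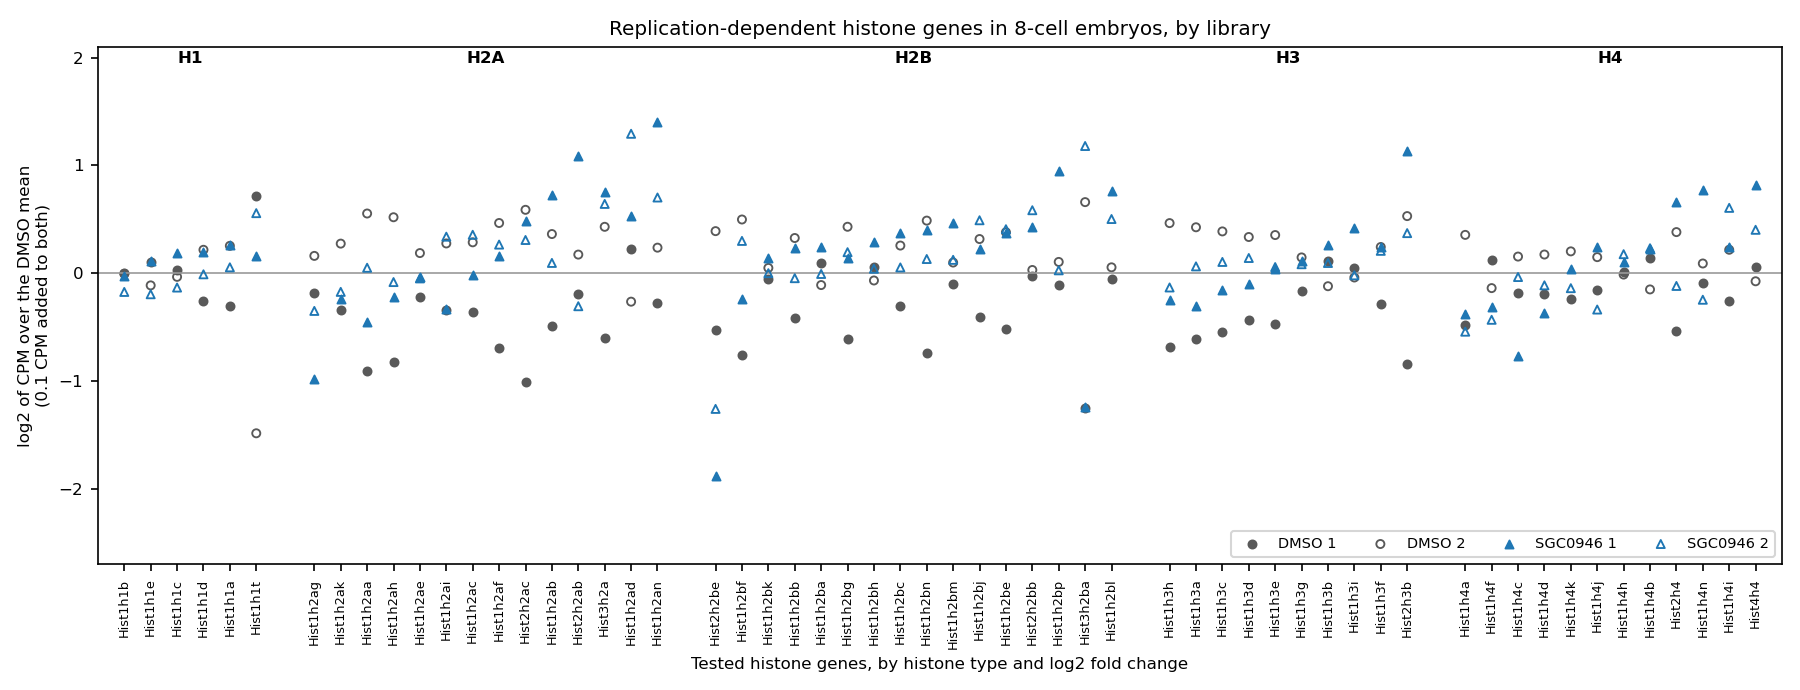
Each column is a tested histone gene in 8-cell embryos, grouped by type, and each point is a library (DMSO grey circles, SGC0946 blue triangles) on a log2 scale of CPM over the DMSO mean. DMSO 1 lies below DMSO 2 in 45 of 58 columns.

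In embryos a linker histone gene stood highest per kb, among whole-read counts in which 8 members were at 0 in all libraries. How reads shared by near-identical copies were treated is not given, and its part in this order was not tested. Hist1h1c (H1f2) read 372 and 355 CPM with DMSO and 414 and 331 CPM with SGC0946, and was at 501 ± 16.6 CPM per kb with DMSO (SD, n = 2). Hist1h4d (H4c4) followed at 291 ± 52.2 CPM per kb, then Hist1h1a (266 ± 72.5), Hist1h1d (248 ± 57.0), Hist1h1e (232 ± 24.8), Hist2h2bb (186 ± 5.27), Hist1h1b (151 ± 0.792) and Hist2h2ac (125 ± 89.5). From Hist1h4d to Hist1h1e each gene differed from the next by less than the SD of either. Of these 8, only Hist2h2bb and Hist1h1b had groups that did not overlap, as 39.2% of all genes did.

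The 3 members with the lowest p were all higher with SGC0946. Hist2h2bb (H2bc18) read 90.0 and 93.7 CPM with DMSO and 124 and 138 CPM with SGC0946 (0.51, SE 0.16, edgeR adjusted p = 0.385). Hist1h2an (H2ac22) read 7.26 and 10.4 CPM with DMSO and 23.4 and 14.4 CPM with SGC0946 (1.10, SE 0.37, edgeR adjusted p = 0.428). Hist1h2bl (H2bc13) read 22.5 and 24.3 CPM with DMSO and 39.7 and 33.2 CPM with SGC0946 (0.64, SE 0.25, edgeR adjusted p = 0.504). In all 3 the groups did not overlap, which picking by p favours. The groups did not overlap in 14 of the 58 tested members and in 39.2% of all genes tested. Hist2h2ac, the H2ac20 that fell in KO mESCs, read 29.1 and 88.3 CPM with DMSO and 82.3 and 72.7 CPM with SGC0946, so its groups overlapped. Its neighbour Hist2h2be (H2bc21) was at 1.33 and 2.60 CPM with DMSO and 0.457 and 0.760 CPM with SGC0946 (-1.68, SE 1.25).

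Summed over the members, the level was 2073 and 2678 CPM with DMSO and 2673 and 2454 CPM with SGC0946, so the groups overlapped. The summed H2B level was 336 and 458 CPM with DMSO and 506 and 480 CPM with SGC0946, and 15 of 16 H2B values lay above 0, while none was called. Of the lists of histone mRNA transcription, processing, decay, chaperones and replication, 0 genes were called in embryos, and the replication genes had a median of -0.12. Cumulus cell markers stood at 0.243 CPM or less in each group mean except Amhr2, at 42.4 CPM with DMSO and 37.4 CPM with SGC0946. The KO and inhibitor comparisons differ in cell type, kit, counting and spread, and were not tested against each other.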

How the data were processed

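The members and gene lists were chosen with earlier results of these data known. Per the submitters' processing notes, reads were handled on build mm10 with kallisto for the mESC RNA (STAR and HTSeq are also named for 4 of those 5 libraries), with STAR and HTSeq for embryos, and with Bowtie2 and MACS2 for ChIP. For mESCs the authors deposited expected counts, estimated for each Ensembl gene and rounded here to whole numbers, and for embryos they deposited read counts per symbol. The deposited peak lists give, per library, the authors' score, fold enrichment (ratio) and −log10 p and q of each peak, and 0 columns remained without a sample. Strandedness of counting and the treatment of reads that match several places are not given in the sources used here. The 69 mESC rows without a symbol held at most 0.0163% of counts and were left out.

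RNA was compared with edgeR 4.0.16 in R 4.3.3 (filterByExpr, TMM, quasi-likelihood F test, Benjamini-Hochberg over all genes tested), separately for mESCs and embryos, with DESeq2 1.42.0 as an alternative. On data simulated with the same spread for all genes, edgeR recovered 100% of 200 genes changed by 2-fold in the mESC design with 19561 genes. CPM use TMM-scaled totals, levels are given with the SD, and log2 fold changes are KO minus WT or SGC0946 minus DMSO. Counting error is covered only as far as reads are independent molecules. A peak covered a gene with 1 bp of its RefSeq span (GRCm38.p6), in both WT lists. Old and new symbols were linked by Ensembl ID. Promoters are from RefSeq.

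Named members were the 8 with the highest control level per kb among spans up to 1000 bp, and per direction the 5 called ones with the largest change and at least 1 CPM, or the 3 with the lowest p. All genes of the lists for histone transcription, 3′ processing and decay could be named, and 3 called genes of each other list. The remaining H1 genes, H2bc21's neighbour pairs, copy sums, H1f6, H2aw, Cenpa, marker genes, short marked genes and neighbours were chosen after their values were seen, as were the comparisons by level and span. Alternatives were DESeq2 size factors, upper-quartile scaling, DESeq2, no filter, 10 counts in every library, the replicate block, each library left out, and for peaks 2 kb flanks, 50% coverage, −log10 q of 5 and single WT lists. Deviations of same-numbered libraries from their group means had correlations of 0.005 and -0.027 in mESCs and 0.052 and 0.052 in embryos. With 2 libraries per embryo group the embryo values are the same by construction, and these correlations do not settle pairing. A search for stem-loops was not run.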

Additional observations from a re-analysis of the deposited data

How the results depend on the processing

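In mESCs the number of members called lower was 32 to 46 with all libraries kept and 29 to 48 with 1 left out, and 29 to 43 of the 43 kept their call in each of these fits. The number called higher was 2 or 3 with all libraries kept and 1 to 3 with 1 left out (1 without KO 1, where H3c14 was not called). The median ran from -0.26 to -0.18, and from -0.31 to -0.16 with 1 library left out. Sample titles number the replicates but do not say whether equal numbers pair the libraries. With the replicate block 42 members were lower and 2 higher in mESCs (median -0.22), and in embryos 0 of 58 passed, while 66 genes were higher and 105 lower among all genes, against 0 and 0 without it. Upper-quartile scaling moved the calls over all mESC genes to 5488 higher and 3170 lower. No setting gave a called member in embryos, where the median was 0.16 to 0.18 with all libraries kept and -0.08 to 0.51 with 1 left out. Peak counts of the placed mESC members were 0 under each alternative. With all libraries kept, signs changed for H2bc8 with upper-quartile scaling (0.06), 10 counts per library (0.00) or the replicate block (0.00), H1f2 with upper-quartile scaling (0.02), and H1f4 with DESeq2 or no filter (-0.00 each). With 1 library left out, H2bc8 ran from -0.04 to 0.03, H1f4 from -0.07 to 0.08, and in embryos Hist1h1c from -0.13 to 0.19, Hist1h1a from -0.09 to 0.47, Hist1h1d from -0.12 to 0.35, Hist1h1e from -0.19 to 0.11 and Hist2h2ac from -0.19 to 1.41. The causes were not tested. Calls of the gene lists under these settings were counted after seeing the data.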
